A study of Homo sapiens with 4 samples.

Results

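The regions described here are the 296 peaks of H3K4me1 that lie in 6 large olfactory receptor gene clusters of the human genome, out of 160601 distinct peaks in the whole list (0.184%). Their members were chosen by position alone: a peak belonged to a cluster if its midpoint fell inside 1 of 6 intervals of the hg19 genome build. On chromosome 1 these are the distal cluster, from 247.6 to 248.9 Mb, and the inner cluster, from 158.3 to 159.5 Mb. On chromosome 11 they are the short-arm cluster, from 4.4 to 6.2 Mb, the pericentromeric cluster, from 55.0 to 56.6 Mb, and the distal long-arm cluster, from 123.6 to 124.5 Mb. The chromosome 14 cluster runs from 20.2 to 20.8 Mb. Together they span 7.4 Mb.

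The peaks come from HepG2 cells, a human liver tumour line, kept in high-glucose medium and transfected with an siRNA. H3K4me1 is histone H3 with a single methyl group on lysine 4, a mark of enhancers and of the flanks of promoters. The study compared H3K4me1 after knockdown of LSD2, a demethylase of this lysine encoded by KDM1B, with cells given a control siRNA. There were 4 samples in 4 groups of 1: an H3K4me1 immunoprecipitation and an input for each of the control and the knockdown cells, and the peak list sets the knockdown immunoprecipitation against the control immunoprecipitation. With no replicates, no test between the conditions was possible. Each peak is a place called for more H3K4me1 reads in the knockdown than in the control library, and the list gives its position and width but no height or fold. The read totals are not known, so the depth behind a peak is unknown, and how far LSD2 was depleted was not measured in the data used here.

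Olfactory receptor genes encode the odorant receptors of the nose and form the largest gene family in mammals. An olfactory sensory neuron expresses a single receptor gene from this repertoire. In other tissues most of these genes are silent and packed in compact chromatin. Most sit in long tandem arrays that arose by duplication. The RefSeq gene table (GRCh38.p14, used for names and gene order only) lists 256 protein-coding genes with OR symbols on chromosomes 1, 11 and 14, which is 6.45% of the 3968 protein-coding genes there, along with 262 OR pseudogenes. Chromosome 11 carries 171 of them, 13.1% of its protein-coding genes. The longest runs in gene order are on chromosome 11, with 57 OR genes from OR4B1 to OR5AK2 and 55 from OR52B4 to OR52W1. On chromosome 1 the longest has 43, from OR2B11 to OR14I1. A run allows up to 8 other genes between OR genes and ignores distance. It therefore need not be a single tandem array or match an interval. Such runs are not made of receptors alone. A run of 15 OR genes on chromosome 1, from OR10T2 to OR10J5, has 9 other genes inside it, among them the DNA sensors IFI16 and AIM2 and FCER1A, a subunit of the IgE receptor. The run that starts with OR52B4 encloses 15 other genes, among them the antiviral factors TRIM5 and TRIM22. The peaks are on hg19, so no peak was assigned to a gene, exon or promoter. A further run of 13 OR genes on chromosome 11, from OR9Q1 to OR5B21, was not placed against the intervals. The flanks and the rest of each chromosome were not cleared of OR genes outside the 6 intervals, so they may hold some.

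The olfactory receptor clusters carried fewer peaks than the rest of their chromosomes, but they were not empty. They held 40.0 peaks per Mb (exact 95% Poisson interval 35.6 to 44.8), against 52.8 per Mb in the rest of chromosomes 1, 11 and 14, weighted by cluster length. The 296 peaks compare with 390.6 at the density of the rest, a ratio of 0.758 (exact 95% interval 0.674 to 0.850), which excludes 1. Intervals here and below reflect counting error alone, with each peak taken as independent of the others. Over the 74 windows of 100 kb in the clusters the variance of the peak count was 1.32 times its mean, so the intervals are too narrow. They also leave out the variation between long stretches of a chromosome. Windows of 1.3 Mb along the rest of chromosome 1 held 24 to 117 peaks, with a median of 73. An interval that excludes 1 therefore does not set a cluster apart from other stretches of its length.

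Density was below that of the rest of the chromosome in all 6 clusters, and the interval of the ratio excluded 1 in 3 of them. Of these calls, that of the pericentromeric cluster held under all 9 alternatives with an interval, that of the distal chromosome 1 cluster under 8 and that of the inner chromosome 1 cluster under only 5. The pericentromeric chromosome 11 cluster was the sparsest, with 56 peaks at 35.0 per Mb (26.4 to 45.5), 0.672 of the rest of chromosome 11 (95% interval 0.507 to 0.874). The distal chromosome 1 cluster followed with 50 peaks at 38.5 per Mb (28.5 to 50.7), a ratio of 0.694 (0.515 to 0.915), and the inner chromosome 1 cluster with 47 peaks at 39.2 per Mb (28.8 to 52.1), a ratio of 0.706 (0.519 to 0.940). For the other three the interval includes 1. The short-arm chromosome 11 cluster, the longest at 1.8 Mb, held 75 peaks at 41.7 per Mb (32.8 to 52.2), a ratio of 0.80 (0.629 to 1.004). The distal long-arm chromosome 11 cluster held 41 peaks at 45.6 per Mb (32.7 to 61.8), a ratio of 0.875 (0.627 to 1.19). The chromosome 14 cluster, the shortest at 0.6 Mb, held 27 peaks at 45.0 per Mb (29.7 to 65.5), a ratio of 0.964 (0.634 to 1.40). The Poisson intervals of all 6 clusters overlap each other, so these counts do not separate one cluster from the next.

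**Figure D1:**
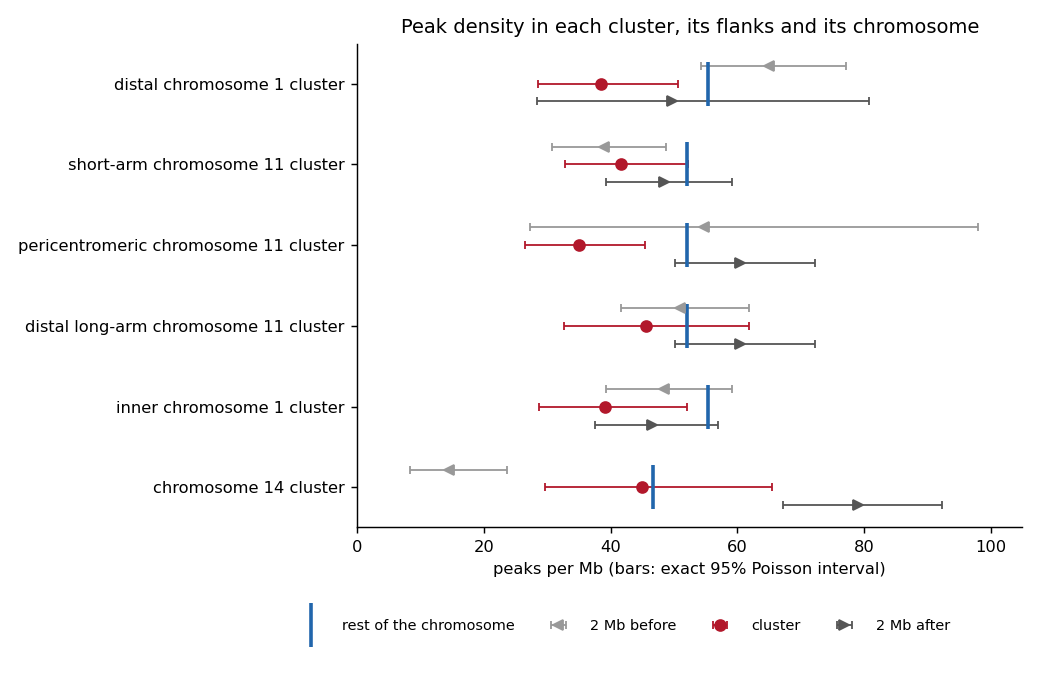
Peaks per Mb (x axis) in each of the 6 clusters (red circles), in the stretches of up to 2 Mb before and after it (triangles) and in the rest of its chromosome (blue lines); bars are exact 95% Poisson intervals. All red circles lie left of the blue lines, from 35.0 to 45.6 peaks per Mb, and the chromosome 14 cluster sits between a sparse stretch before it (14.6) and a dense one after it (79.0).

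The stretches beside the clusters gave a similar picture with 2 exceptions. Of the 12 flanks of up to 2 Mb, 10 were denser than the cluster they adjoin, and for 3 of them the 95% interval of the ratio lay below 1. These were the flank before the distal chromosome 1 cluster (65.0 peaks per Mb, ratio of cluster to flank 0.592, 0.418 to 0.826), the flank after the pericentromeric chromosome 11 cluster (60.5 per Mb, ratio 0.579, 0.414 to 0.80) and the flank after the chromosome 14 cluster (79.0 per Mb, ratio 0.570, 0.364 to 0.861). The flank before the short-arm chromosome 11 cluster was slightly sparser than the cluster, at 39.0 per Mb, and the ratio of 1.07 had an interval from 0.768 to 1.49. The flank before the chromosome 14 cluster held only 16 peaks over 1.10 Mb, 14.6 per Mb, so the cluster was 3.09-fold denser than this stretch (1.61 to 6.14). Peaks on this chromosome begin only 1.10 Mb ahead of the cluster. After a peak-free gap the list resumes 0.201 Mb before the pericentromeric cluster of chromosome 11, and it ends 0.321 Mb after the distal cluster of chromosome 1, so these flanks were short.

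The density of the chromosome 14 cluster did not differ detectably from that of the rest of its chromosome or of its pooled flanks. With both flanks as the reference the ratio was 0.801 (95% interval 0.513 to 1.21). The cluster lies in the peak-rich proximal block of chromosome 14, from 19 to 44 Mb, whose other 2268 peaks lay at 93.3 per Mb. The block was uneven, as it includes the flank before the cluster, at 14.6 per Mb. Against this block the cluster had 0.482 of the density (95% interval 0.317 to 0.703). This reference was chosen after the block had been seen.

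Set beside all windows of its own length tiled along the rest of its chromosome, each cluster was sparse or ordinary, not the emptiest. Of the 77 windows of 1.6 Mb on chromosome 11, 10 held as few peaks as the 56 of the pericentromeric cluster or fewer, and the median window held 79. For the distal cluster of chromosome 1 it was 28 of 171 windows of 1.3 Mb, with a median of 73 peaks, and for the inner cluster 27 of 186 windows of 1.2 Mb, with a median of 67.5. For the short-arm cluster it was 14 of 66 windows of 1.8 Mb, with a median of 90. The distal long-arm cluster and the chromosome 14 cluster were ordinary by this measure, at 56 of 137 and 89 of 144 windows.

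Inside the clusters the peaks were scattered through the arrays with a few empty stretches. A window of 100 kb held 4.0 ± 2.29 peaks (SD over 74 windows), from 0 to 10, and only 2 windows held none. The extremes lay side by side in the pericentromeric chromosome 11 cluster: its window from 55800001 to 55900000 held 10 peaks and the next, from 55900001 to 56000000, held 0. The other empty window was in the inner chromosome 1 cluster, from 159300001 to 159400000. That cluster had most of its peaks in the middle, with 8 or 9 in its 3 fullest windows and 9 in the fullest, from 159000001 to 159100000. The fullest window of the distal chromosome 1 cluster also held 9 peaks, from 247800001 to 247900000, and its emptiest, from 248500001 to 248600000, held 1. In the short-arm chromosome 11 cluster the counts ran from 1, in the window from 4700001 to 4800000, to 7, first reached in the window from 4400001 to 4500000. The distal long-arm cluster was the most even, with 2 to 7 peaks in each of its 9 windows. Its 2 fullest windows ran from 123900001 to 124100000, and its emptiest was the one just before, from 123800001 to 123900000.

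The chromosome 14 cluster was the most lopsided, with 6 peaks in its first 300 kb and 21 in the other 300 kb. Its windows held 4, 1, 1, 7, 6 and 8 peaks in order. The step runs the same way as its flanks, sparse before and dense after. In the gene table the OR run of chromosome 14 with 17 OR genes ends at OR11H4 and is followed by TTC5, which is not a receptor gene, but where these lie within the 6 windows was not analysed here.

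**Figure D2:**
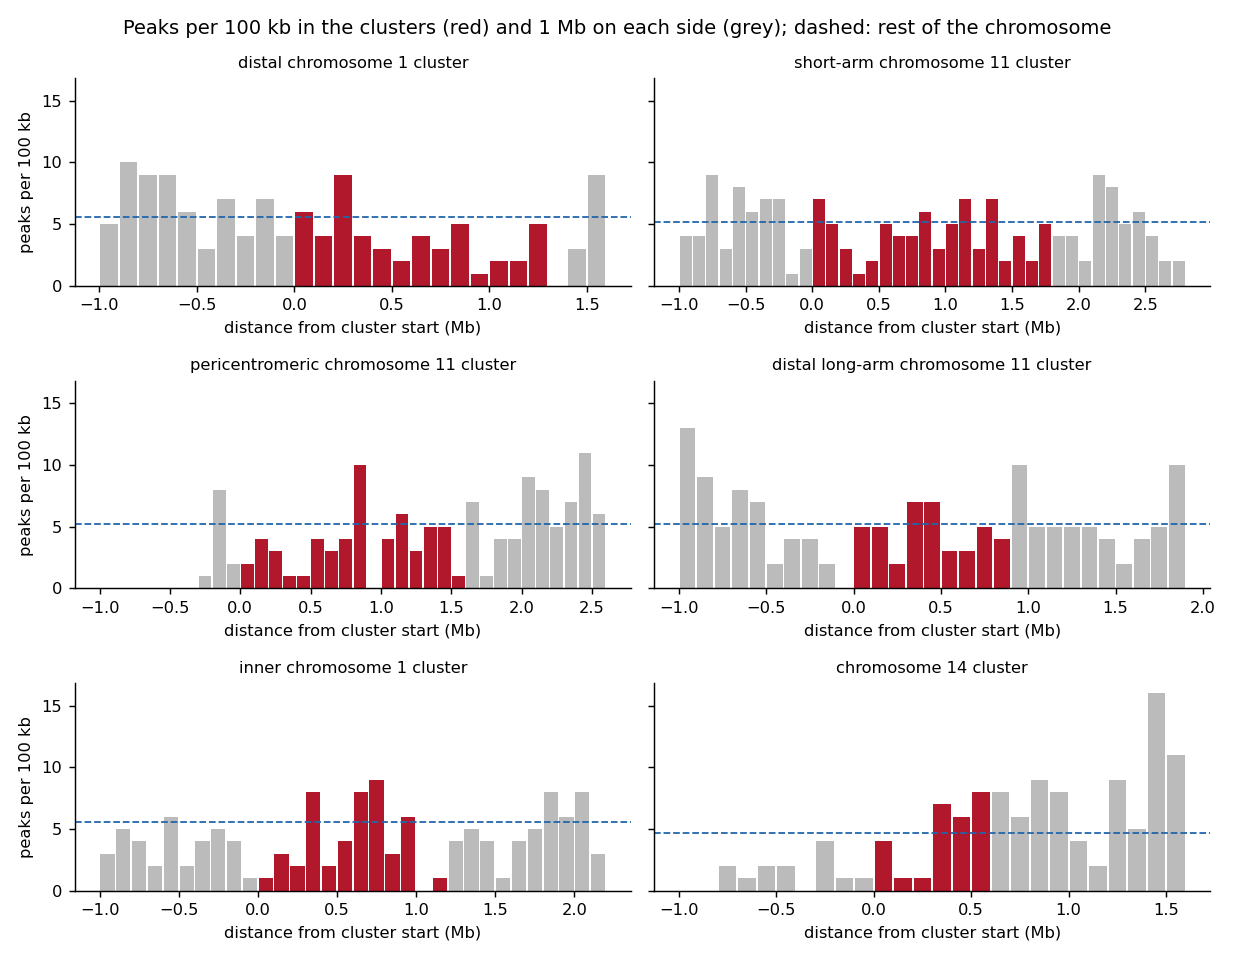
Peaks per 100 kb (y axis) by distance from the start of each cluster in Mb (x axis), inside the cluster (red bars) and for 1 Mb on each side (grey bars, where the chromosome has peaks); the dashed line is the density of the rest of the chromosome. Red bars run from 0 to 10 peaks, with the empty window of the pericentromeric chromosome 11 cluster right after its fullest, and the chromosome 14 panel climbs from left to right.

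The longest peak-free stretch was in the inner chromosome 1 cluster. It spanned 163 kb, between a peak of 356 bp from 159287883 to 159288238 and a peak of 250 bp from 159451437 to 159451686. In the rest of chromosome 1, 30 of 12500 gaps between neighbouring peaks (0.240%) were as long or longer. The chromosome 14 cluster had a gap of 147 kb, between a peak of 288 bp (20336927 to 20337214) and a peak of 462 bp (20483762 to 20484223), and 1.57% of the gaps on the rest of that chromosome were as long. The longest gaps of the pericentromeric and distal chromosome 1 clusters were 115 kb, between peaks of 283 bp (55884559 to 55884841) and 293 bp (55999883 to 56000175), and 112 kb, between peaks of 269 bp (248039777 to 248040045) and 202 bp (248152281 to 248152482). In the short-arm cluster the longest was 95.3 kb, between peaks of 334 bp (4731844 to 4732177) and 367 bp (4827454 to 4827820). In the distal long-arm cluster it was 66.7 kb, between peaks of 252 bp (124377557 to 124377808) and 383 bp (124444481 to 124444863), and 4.14% of the gaps on the rest of chromosome 11 were as long. None of these stretches was beyond the range seen elsewhere on the same chromosome. The shares count single gaps, while each gap compared with them is the longest of its cluster. A low share therefore does not measure how unusual a cluster is.

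Peaks in the olfactory receptor clusters were narrower, and broad ones were scarce. Their median width was 282.5 bp (exact 95% interval 265 to 295), with quartiles of 212.5 and 353 bp, against a median of 313 bp in the rest of the 3 chromosomes, each chromosome weighted by the number of cluster peaks on it. Only 19 of the 296 peaks were 420 bp or wider, the width above which the whole list thins out abruptly. That is 6.42% (95% Wilson interval 4.15 to 9.81%), against 16.9% in the rest with the same weights. No cluster peak reached 1 kb (0 of 296, upper Wilson limit 1.28%, or 1.01% by the limit of 3 counts), while 190 of the 23206 peaks in the rest did (0.819%), so the clusters are too small for this last count to show a difference. At 600 bp the count was 1 of 296 peaks (0.338%, 0.0597 to 1.89%) against 6.36% of the rest. Shares of the rest at 1 kb, 600 bp and 200 bp pool all its peaks without weights. Pooled that way, 17.8% of the rest was 420 bp or wider. Peaks narrower than 200 bp were 22.3% of the clusters (17.9 to 27.4%) and 17.1% of the rest. This excess was not general: the share was 36.0% in the distal chromosome 1 cluster and 29.3% in the short-arm chromosome 11 cluster, 17.9% and 17.0% in the pericentromeric and inner chromosome 1 clusters, and only 14.6% and 7.41% in the distal long-arm and chromosome 14 clusters. In the rest of the 3 chromosomes it was 16.5 to 18.1%. Fewer and narrower peaks together left 1.15% of the cluster sequence covered by peaks, against 1.77% in the rest.

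**Figure D3:**
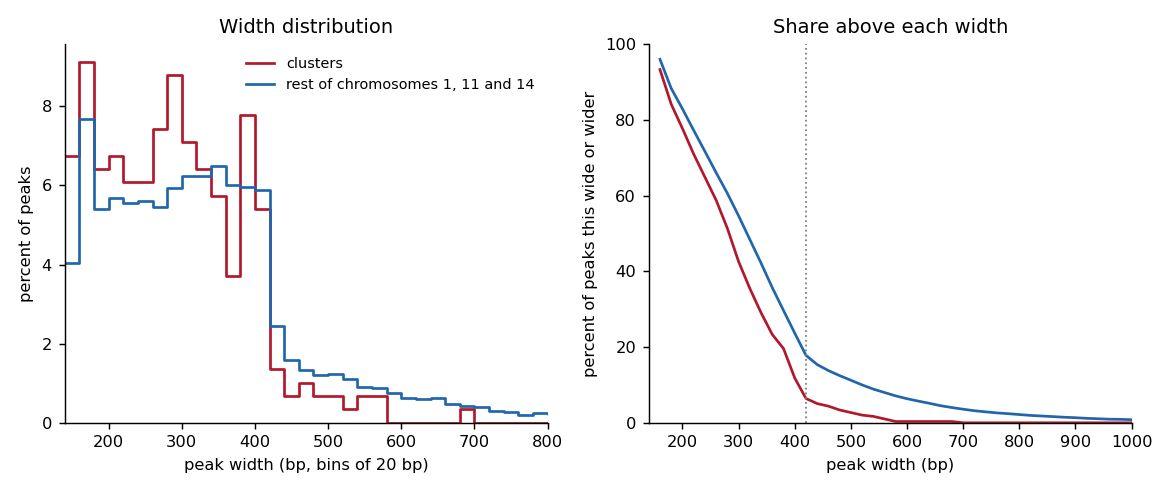
Left, percent of peaks (y axis) by width in bins of 20 bp (x axis) for the 296 cluster peaks (red) and the rest of chromosomes 1, 11 and 14 (blue); right, percent of peaks at or above each width, with a dotted line at 420 bp. The red curve lies below the blue one, with 6.42% of cluster peaks to the right of the dotted line, and ends at 692 bp.

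The median width was below that of the rest of the chromosome in all 6 clusters, and its interval lay below it in 2. The distal chromosome 1 cluster stood out, with a median of 230 bp (190 to 275) against 317 bp in the rest of chromosome 1. Quartiles there were 184 and 299 bp, and 18 of its 50 peaks (36.0%) were under 200 bp, against 16.5% in the rest. None of the 171 windows of 1.3 Mb tiled along the rest of chromosome 1 had a median as low. The 2 Mb before it had a median of 348 bp and the short stretch after it one of 257 bp. The pericentromeric chromosome 11 cluster had a median of 280 bp (262 to 304) against 312 bp, and 6 of 77 windows were as narrow. The other medians were 290 bp (234 to 327) in the short-arm chromosome 11 cluster, 301 bp (252 to 366) in the distal long-arm cluster, 305 bp (255 to 349) in the inner chromosome 1 cluster and 288 bp (231 to 380) in the chromosome 14 cluster. Their intervals include the medians of the rest, which were 312, 312, 317 and 309 bp.

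Broad peaks were rarest in the 2 largest clusters of chromosome 11. The pericentromeric cluster had no peak of 420 bp or wider (0 of 56, upper Wilson limit 6.42%, or 5.36% by the limit of 3 counts), and the short-arm cluster had 2 of 75 (2.67%, 0.734 to 9.21%), against 15.7% in the rest of chromosome 11. None of the 77 and none of the 66 windows of the same lengths on that chromosome had a share as low. The distal chromosome 1 cluster had 3 of 50 (6.0%, 2.06 to 16.2%), against 18.7% in the rest of chromosome 1. In these 3 clusters the interval lies below the share in the rest. The distal long-arm cluster, with 4 of 41 (9.76%, 3.86 to 22.5%), the inner chromosome 1 cluster, with 6 of 47 (12.8%, 5.98 to 25.2%), and the chromosome 14 cluster, with 4 of 27 (14.8%, 5.92 to 32.5%), had lower shares than the rest of their chromosomes, but within their intervals.

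The widest peak of all lay in the inner chromosome 1 cluster and measured 692 bp (158656159 to 158656850). The widest peaks of the other clusters were 558 bp in the short-arm chromosome 11 cluster (6109863 to 6110420), 521 bp in the distal long-arm cluster (123985330 to 123985850), 512 bp in the distal chromosome 1 cluster (247860188 to 247860699), 499 bp in the chromosome 14 cluster (20730221 to 20730719) and 416 bp in the pericentromeric cluster (55871672 to 55872087). The last lies in the fullest window of its cluster, just before the empty one. At the other end, the narrowest cluster peak was 150 bp.

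Sparse stretches of these chromosomes also had narrower peaks and fewer broad ones. Among the 430 windows of 1 Mb in the rest of chromosomes 1, 11 and 14, 83 held 35 to 45 peaks, the range of densities of the clusters. Their median widths had a median of 303 bp (quartiles 285.75 and 318.25, range 242 to 361), against 311 bp over all 430 windows, and 10.2% of their 3376 peaks were 420 bp or wider, against 17.8%. The clusters together, at 282.5 bp and 6.42%, were below both values, and the share of broad peaks in these windows is just above their Wilson interval (4.15 to 9.81%). This did not hold for each cluster. The inner chromosome 1 cluster (305 bp, 12.8%) was above both values, and the chromosome 14 cluster (288 bp, 14.8%) was above the share. The distal long-arm cluster (301 bp, 9.76%) was close to both. The distal chromosome 1 (230 bp, 6.0%), short-arm (290 bp, 2.67%) and pericentromeric (280 bp, 0%) clusters were below both. In the 83 windows the share of peaks under 200 bp, 20.4%, lies within the interval of the clusters together (17.9 to 27.4%), so no difference was detectable there. In 18 of the 83 windows the median was as low as that of the clusters, and in 31 the share of broad peaks was.

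**Figure D4:**
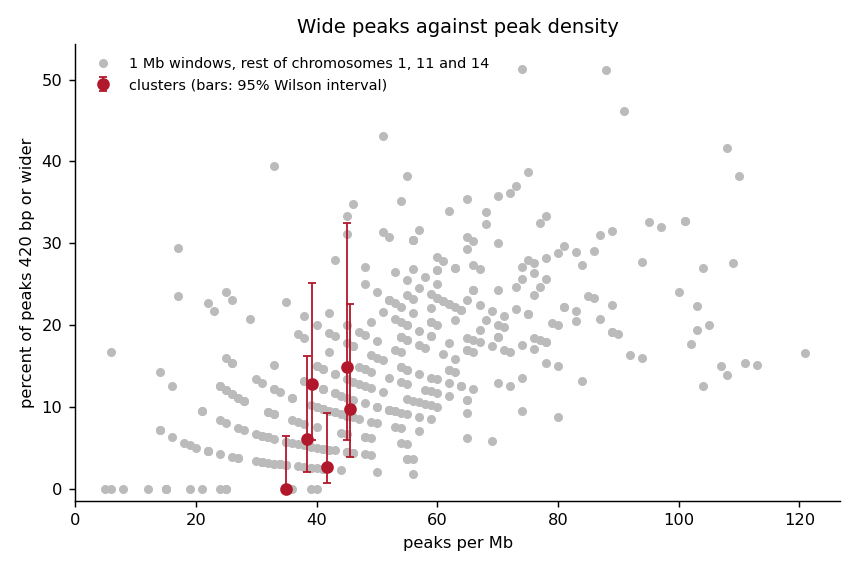
Percent of peaks of 420 bp or wider (y axis) against peaks per Mb (x axis) in 1 Mb windows of the rest of chromosomes 1, 11 and 14 (grey points) and in the 6 clusters (red points, with 95% Wilson intervals). The clusters sit in the lower left, from 0 to 14.8%, within the cloud of sparse windows.

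Peaks in the clusters had fewer close neighbours. Another peak lay within 5 kb of 91 of the 296 (30.7%, 95% Wilson interval 25.8 to 36.2%), against 50.5% in the rest. The share was lower than the rest in each of the 6 clusters, with the interval below it, from 23.4% in the inner chromosome 1 cluster (13.6 to 37.2%, against 50.9%) to 36.0% in the distal chromosome 1 cluster (24.1 to 49.9%, against 50.9%). In the 83 windows of like density the share was 37.6%, just above the interval of the clusters, against 51.2% over all 430 windows. Both peaks of a close pair are counted, so these intervals are too narrow to show a difference from the 83 windows. The part of peak density in the lower share of the clusters was not tested further. The median gap between neighbouring peaks was 13.9 kb in the chromosome 14 cluster, against 9.56 kb in the rest of that chromosome, and 17.1 kb in the distal long-arm chromosome 11 cluster, against 11.4 kb. The other 4 clusters fell between, at 14.6 to 16.9 kb.

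The frequency of tight groups did not differ detectably from that in the rest. There were 2 runs of 3 or more peaks, each within 1 kb of the next, and they held 6 peaks. That is 2.03% (95% Wilson interval 0.932 to 4.35%, which includes the 3.18% of the rest, pooled without weights). At the distal end of the distal chromosome 1 cluster, peaks of 292, 291 and 229 bp lay between 248866933 and 248868518, the first pair only 13 bp apart. In the short-arm chromosome 11 cluster, peaks of 281, 198 and 179 bp lay between 5294550 and 5295784. All 6 were narrower than the median peak in the rest.

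The clusters differed most from each other in how often their peaks were written in the deposited list. Some peaks occupy several identical rows, for a reason the list does not give. Of the 296 cluster peaks, 43 were listed more than once (14.5%, 95% Wilson interval 10.97 to 18.996%), against 12.3% in the rest, which this interval includes. The short-arm chromosome 11 cluster alone held 26 of these 43. There 34.7% of the peaks were repeated (24.9 to 45.9%), against 12.6% in the rest of chromosome 11, while the other 5 clusters together had 17 of 221 (7.69%). In that cluster 13 peaks had 2 rows, 9 had 3 and 4 had 4. A run of 14 consecutive peaks, from 5275253 to 5521688, was listed 2 to 4 times throughout, and it includes the tight group of 3 peaks. The first peak with 4 rows was 201 bp wide, from 5346908 to 5347108.

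The other clusters of chromosome 11 had almost no repeated peaks, 1 of 56 in the pericentromeric cluster (2 rows, 55240369 to 55240644, 276 bp) and 0 of 41 in the distal long-arm cluster (upper Wilson limit 8.57%, or 7.32% by the limit of 3 counts). Their intervals do not overlap that of the short-arm cluster. These intervals take each peak as independent, but 14 of the 26 repeated peaks of the short-arm cluster form a single run. They are therefore too narrow, and the lack of overlap does not measure how firmly the clusters differ. The inner chromosome 1 cluster had 1 of 47, with 3 rows, from 159168009 to 159168206. The distal chromosome 1 cluster had 8 of 50 (16.0%, 8.34 to 28.5%), all with 2 rows and the first from 247692297 to 247692486. The chromosome 14 cluster had 7 of 27 (25.9%, 13.2 to 44.7%), led by a peak of 168 bp with 3 rows from 20211231 to 20211398, close to its start. The share in the short-arm cluster was 2.74 times that in the rest of its chromosome.

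**Figure D5:**
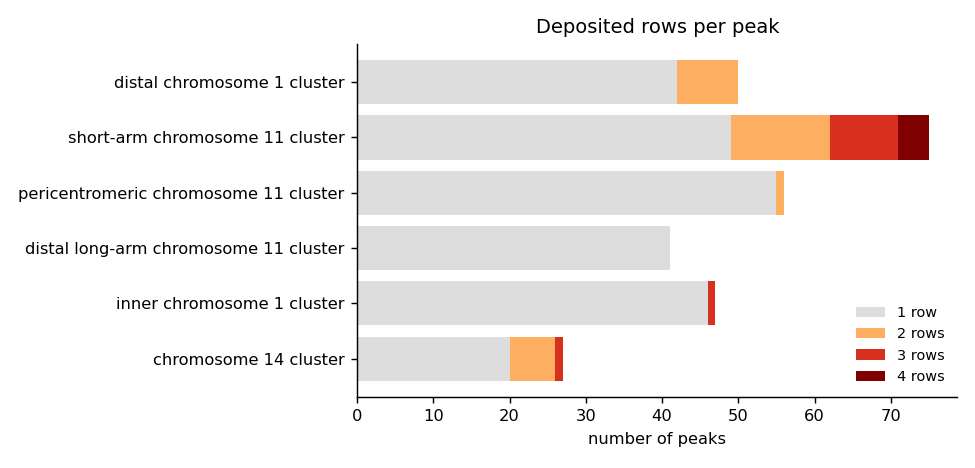
Number of peaks (x axis) in each of the 6 clusters, split by the number of identical rows a peak occupies in the deposited list (grey 1, orange 2, red 3, dark red 4). The short-arm chromosome 11 cluster holds 26 of the 43 repeated peaks and all 4 of those with 4 rows.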

How the data were processed

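Per the labels' protocols, chromatin was sonicated, immunoprecipitated and sequenced on semiconductor instruments. The submitters' processing notes name BWA and hg19, with versions not given in the sources used here. Per the file header, the authors trimmed reads, removed duplicate reads and called peaks with MACS (siLSD2 library as treatment, siGL3 library as control, read and fragment length 128 bp, p-value cutoff 1e-05, enrichment factor 32, local biases detected), naming neither input. The deposited columns hold a chromosome, a start and an end in bases, with no score. The fragment length sets how narrow a peak can be. Number and width both depend on how deeply the libraries were sequenced, which is unknown.

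The 180505 deposited rows were reduced to 160601 distinct peaks, printed counting from 1. Reference density left out the clusters and peak-free gaps over 1 Mb, counting from the first to the last peak of a chromosome. A neighbour was a peak whose nearest edge lay within 5 kb. Density ratios have exact conditional binomial intervals, densities exact Poisson, shares Wilson and medians order-statistic intervals, all at 95% (Python 3.11.15, SciPy 1.17.1). The functions were tested on simulated peaks of even density, which does not test the intervals under the uneven density of the real list. Named peaks and windows were, per cluster, the widest peak, the first with most rows, those beside the longest gap, the fullest and emptiest 100 kb window, and runs of 3 or more peaks within 1 kb. The clusters, limits and measures were chosen with earlier results of these data known. The check by windows of like density was added after seeing them.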

Additional observations from a re-analysis of the deposited data

How the results depend on the processing

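The 5 results on the clusters together (density ratio, difference in median width, and shares of broad, repeated and closely spaced peaks) kept their direction under every alternative run, except the share of repeated peaks. The density ratio was 0.650 by covered bases and 0.567 when only the wider peaks were kept, from the list's median width up, and 0.685 to 0.805 under the other 15 alternatives (other borders, membership by overlap, other gaps, flanks or all autosomes as reference, merged peaks, every row, each cluster left out). The difference in median width ranged from -41.5 to -21 bp over 13 alternatives. The share of broad peaks was 10.6% after merging peaks within 1 kb, when that of the rest was 23.4%, and 5.22 to 9.04% otherwise. The share of repeated peaks was 7.69% without the short-arm chromosome 11 cluster, against 12.2% in the rest, so its slight excess rests on that cluster. With flanks as reference it was 14.5% against 18.3%. The share with a neighbour was 8.11% at 1 kb (17.7% in the rest) and 82.8% at 20 kb (88.2%). Of 67 values for single clusters, 64 stayed below 1. The others were the short-arm cluster by rows (1.10) and the chromosome 14 cluster by rows (1.07) and after merging (1.07). Whether an interval excluded 1 was less stable. It included 1 for the inner chromosome 1 cluster with borders moved in (upper limit 1.09), merged peaks (1.02), no gap left out (1.03) and flanks as reference (1.14), and for the distal chromosome 1 cluster with no gap left out (1.001). For the short-arm chromosome 11 cluster it excluded 1 under 5 of 9 alternatives, among them both shifts of the borders (upper limits 0.936 and 0.970). No paired analysis was possible because there is a single library for each group, and none could be left out. Depth is unknown, so an empty stretch of a cluster cannot be told apart from one with too few reads to call. Whether reads could be placed uniquely in the duplicated sequence of the clusters was not examined.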
